A study of Mus musculus with 2 samples.

Results

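Natural killer (NK) receptors and the adaptors that carry their signal were followed in γδ T cells of mouse colon: the 7 receptor genes Klrd1, Klrc1, Klrc2, Klrk1, Klre1, Klra5 and Klra7, and the 3 adaptor genes Tyrobp, Fcer1g and Hcst. These 10 genes were chosen by name out of 32285 in the matrices, and all 10 were present in both. The cells came from colon tumor (TIL) and from normal colon tissue (IEL) of C57BL/6J mice aged 18 to 20 weeks, with 1 single-cell library (10x Genomics 3' v3) each, both labelled as γδ T lymphocytes. No genotype, tumour model or treatment is named in the labels, and how many animals were pooled is not given in the sources used here. The preparation text speaks of tumour tissue for both libraries and names no sort or gate. With 1 library per tissue there was no replicate check, so each difference is between these libraries, tissue and library cannot be told apart, and every 95% interval covers counting error only.

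NK receptors are lectin-like proteins that let lymphocytes read stress and class I molecules on other cells without the antigen receptor. Some carry an inhibitory motif in their own tail, while activating ones have no signalling tail and depend on an adaptor, either DAP12 (Tyrobp) and the Fc receptor γ chain (Fcer1g), which recruit Syk-family kinases, or DAP10 (Hcst), which recruits phosphoinositide 3-kinase and Grb2. T cells of the gut epithelium are known to carry several of these receptors, and the γ chain can also stand in for the ζ chain of the T cell receptor complex.

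The TIL library held 13245 barcodes and 94953893 UMIs (unique molecular identifiers), and the IEL library 9398 barcodes with 69414155 UMIs, and 33 barcodes occurred in both. After filtering, 12407 TIL and 9128 IEL cells remained, of which 11720 TIL and 9080 IEL cells lay in clusters that carried γδ T markers (γδ T-like cells). Only 4 of these TIL cells and 9 of these IEL cells had no UMI of Cd3e, Cd3d or Cd3g. Transcripts of a γ or δ constant segment without any of Trac, the α chain, were found in 7338 TIL and 2002 IEL cells, and both kinds of segment in 4353 TIL and 7048 IEL cells. All 8 listed γδ T markers reached 50 UMIs per 1000000 (CPM) in these TIL cells and 7 of the 8 in IEL cells. The list includes Cd3e, Cd3d and Cd3g, which any T cell carries, so it does not by itself set γδ T cells apart from other T cells. The highest marker was Trdc in TIL cells (3970 CPM) and Cd3g in IEL cells (1990 CPM). Of 6 listed markers of NK or innate lymphoid cells, none reached 50 CPM in the γδ T-like cells of either library. Their summed level was 6.16 CPM in TIL cells, with Klra8 at 0, and 19.9 CPM in IEL cells, mostly Klrb1c.

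The 7 receptor genes lie within 655.4 kb of chromosome 6 (GRCm38, GENCODE vM21), from Klre1 (129577905 to 129585827) to Klra7 (130218605 to 130233322). Tyrobp (chromosome 7, 30413760 to 30417585, plus strand) and Hcst (30417712 to 30419854, minus strand) face each other tail to tail with 126 bases between their ends, and Fcer1g lies on chromosome 1 (171229572 to 171234365). Klrc1 and Klrc2 are related copies: 21.9% of the 90-base windows in the last 500 bases of Klrc1 transcripts also occur in Klrc2, and 8.49% of those of Klrc2 in Klrc1 or Klrc3. For Klra7 the figure was 6.57%, shared with the pseudogene Klra13-ps, and for the other members 0. Reads in shared windows cannot be given to one gene, so the split between Klrc1 and Klrc2 is uncertain.

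Across library and cluster the members moved in 2 main patterns, and the promoters of a pair from each are shown (RefSeq, GRCm38.p6, 250 bases before to 50 after the start, 5′ to 3′). Fcer1g (chr1:171234300-171234599, minus strand) and Klre1 (chr6:129577963-129578262, plus strand) were high in IEL cells. Klrc1 (chr6:129678924-129679223, minus strand) and Klrc2 (chr6:129660547-129660846, minus strand) were not. Capitals mark TGTGGT, the core motif of RUNX factors, or its reverse complement ACCACA.
Fcer1g: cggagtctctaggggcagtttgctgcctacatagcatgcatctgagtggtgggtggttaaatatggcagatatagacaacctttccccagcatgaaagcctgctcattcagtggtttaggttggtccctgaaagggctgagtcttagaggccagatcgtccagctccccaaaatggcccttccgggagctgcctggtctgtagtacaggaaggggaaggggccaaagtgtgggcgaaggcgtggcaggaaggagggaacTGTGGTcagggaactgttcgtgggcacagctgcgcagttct
Klre1: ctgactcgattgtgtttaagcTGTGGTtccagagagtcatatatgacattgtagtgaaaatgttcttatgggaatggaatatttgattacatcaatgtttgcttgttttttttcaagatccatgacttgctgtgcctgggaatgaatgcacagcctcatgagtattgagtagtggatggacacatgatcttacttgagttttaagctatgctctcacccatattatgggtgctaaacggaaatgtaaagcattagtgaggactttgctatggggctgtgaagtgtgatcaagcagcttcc
Klrc1: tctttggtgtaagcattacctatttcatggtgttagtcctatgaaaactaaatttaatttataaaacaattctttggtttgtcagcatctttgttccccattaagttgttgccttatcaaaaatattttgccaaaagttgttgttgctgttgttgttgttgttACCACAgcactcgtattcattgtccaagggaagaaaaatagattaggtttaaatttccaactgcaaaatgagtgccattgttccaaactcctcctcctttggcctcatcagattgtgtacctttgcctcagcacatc
Klrc2: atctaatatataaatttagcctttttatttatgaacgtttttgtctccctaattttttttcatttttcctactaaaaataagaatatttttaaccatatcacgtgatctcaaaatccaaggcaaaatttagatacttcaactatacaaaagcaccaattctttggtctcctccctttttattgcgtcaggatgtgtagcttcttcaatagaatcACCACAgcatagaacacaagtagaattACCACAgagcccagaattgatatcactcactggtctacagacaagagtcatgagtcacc
The motif was present in 5 of the 8 members with a promoter in the table (these 4 and Klrk1) and in 16.8% of all 32851 promoters of the same length. It was not found in Klra5, which varied with Fcer1g and Klre1, nor in Klra7 or Hcst. The T-box motif AGGTGTGA was in none of the 8 and in 1.27% of all promoters, and the ETS motif CAGGAAGT was in Hcst alone of the 8 and in 3.33% of all, both strands searched.

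CD94, encoded by Klrd1, was found in most IEL cells and in a minority of TIL cells. It pairs with an NKG2 chain to bind Qa-1. Klrd1 stood at 140 CPM (137 to 142) in TIL cells, against 866 CPM (859 to 873) in IEL cells, giving a log2 ratio (TIL over IEL) of -2.63 (-2.66 to -2.60). With each cell thinned to 2000 UMIs, 16.9% of TIL cells (16.2 to 17.6) and 75.0% of IEL cells (74.1 to 75.9) had a Klrd1 UMI, and without thinning 29.5% of TIL and 94.98% of IEL cells. Myeloid-like cells of the same TIL library (cluster 14, led by macrophage genes and by the neutrophil genes S100a8 and S100a9) should not make CD94. Thinned to 2000 UMIs, 7.83% (4.63 to 12.2) of the 217 such cells deep enough had a Klrd1 UMI. Their cluster had a median depth of 7032.5 UMIs before thinning, against 6387 in TIL and 6854.5 in IEL γδ T-like cells. The γδ T markers summed to 2298 CPM in those myeloid-like cells, against 9158 CPM in TIL γδ T-like cells, so they were not free of T cell transcripts. No such yardstick existed for normal colon, since even the 27 epithelial-like IEL droplets had Klrd1 in 54.2% (32.8 to 74.4).

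The NKG2 partner chains did not follow CD94. Klrc1 encodes NKG2A, the inhibitory partner, and Klrc2 encodes NKG2C, an activating partner that signals through DAP12. Klrc1 was at 96.0 CPM in TIL cells against 46.2 CPM in IEL cells, giving a log2 ratio of 1.06 (0.997 to 1.12), and was the only member at least 2-fold higher in TIL cells. Among cells with a γδ segment and no Trac in the whole libraries this ratio was 0.88, which ends that call. A Klrc1 UMI was found in 13.6% of TIL cells (12.9 to 14.2), 6.26% of IEL cells (5.77 to 6.78) and 6.45% of TIL myeloid-like cells (3.57 to 10.6). Klrc2 was at 29.9 CPM in TIL cells against 28.1 CPM in IEL cells, in 5.45% of TIL cells (5.04 to 5.88) and 4.66% of IEL cells (4.24 to 5.12), with 1.38% of TIL myeloid-like cells (0.286 to 3.99). The intervals of the Klrc2 shares overlapped between γδ T-like cells of the libraries. Of the UMIs given to Klrc1 or Klrc2, 76.2% (75.4 to 77.0) were Klrc1 in TIL cells, against 62.2% in IEL cells.

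NKG2D, the Klrk1 product, binds stress-induced ligands and signals through DAP10, and in mouse a short form also uses DAP12. Klrk1 was at 146 CPM (143 to 148) in TIL cells, against 105 CPM (102 to 107) in IEL cells, giving a log2 ratio of 0.48 (0.44 to 0.52) that lay within 2-fold. It was found in 21.1% of TIL cells (20.4 to 21.9) and 13.0% of IEL cells (12.3 to 13.7), and in 5.99% of TIL myeloid-like cells (3.23 to 10.0).

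Klre1, Klra5 and Klra7 were rare in TIL cells. The Klre1 chain joins Klri1 into an inhibitory or Klri2 into an activating receptor in mouse, and Klra5 (Ly49E) and Klra7 (Ly49G) are inhibitory members of the Ly49 family. Klre1 was at 9.02 CPM in TIL cells against 160 CPM in IEL cells (log2 -4.15, -4.26 to -4.04), and its share was 1.54% of TIL and 22.5% of IEL cells. Klra5 was at 3.07 CPM in TIL cells against 49.5 CPM in IEL cells (log2 -4.01, -4.20 to -3.83), in 0.352% of TIL and 5.86% of IEL cells. Klra7 was at 2.42 CPM in TIL cells against 16.2 CPM in IEL cells (log2 -2.74, -2.96 to -2.53), under the 20 CPM floor in both, and its share was 0.266% of TIL and 2.02% of IEL cells. After thinning, none of the 217 TIL myeloid-like cells deep enough for it had a UMI of Klre1, Klra5 or Klra7 left. That count allows a share of up to 1.38% for each, with an upper Clopper-Pearson bound of 1.69%. None of the 3 TIL shares was above that bound, which is wide because it rests on 217 cells. The highest TIL cluster levels were 167 CPM of Klre1 in cluster 12, and 29.9 CPM of Klra5 and 39.8 CPM of Klra7 in cluster 11. Without thinning, the TIL myeloid-like cells had 3.22 CPM of Klre1 (8 UMIs), 0 of Klra5 and 0.403 CPM of Klra7 (1 UMI).

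Both adaptors with a Syk-recruiting motif were lower in TIL cells, and DAP10 lay within 2-fold. Tyrobp was at 45.4 CPM (44.0 to 46.8) in TIL cells, against 430 CPM (425 to 435) in IEL cells, giving a log2 ratio of -3.24 (-3.29 to -3.20), and 4.17% of TIL and 36.0% of IEL cells had a UMI. Fcer1g was at 120 CPM (117 to 122) in TIL cells, against 881 CPM (874 to 888) in IEL cells, giving a log2 ratio of -2.88 (-2.91 to -2.85), with shares of 8.43% and 65.3%. Hcst was at 344 CPM in TIL cells against 504 CPM in IEL cells, giving a log2 ratio of -0.55 (-0.58 to -0.53), with shares of 48.1% in TIL cells (47.2 to 49.0), 60.4% in IEL cells (59.4 to 61.4) and 22.1% in TIL myeloid-like cells (16.8 to 28.2).

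Myeloid cells make Tyrobp and Fcer1g in quantity, and their share of these transcripts was measured. The TIL myeloid-like cluster of 260 cells held Tyrobp at 1726 CPM and Fcer1g at 1645 CPM, and with them 48.8% of all TIL Tyrobp and 25.3% of all TIL Fcer1g UMIs. This cluster is outside the γδ T-like cells. Of 9 macrophage or monocyte markers none reached 50 CPM in γδ T-like cells, and their summed level was 22.5 CPM in TIL cells against 3.03 CPM in IEL cells. The 7 neutrophil markers summed to 43.4 CPM in TIL cells against 0.923 CPM in IEL cells, where 5 of the 7 were at 0, S100a8 and S100a9 among them. Among the 8532 TIL and 8826 IEL cells with no UMI of either list, the log2 ratio was -3.29 for Tyrobp and -2.88 for Fcer1g. Among all cells with a γδ segment and no Trac, whatever their cluster (7637 TIL and 2010 IEL cells), the Tyrobp ratio was -2.02.

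**Figure D1:**
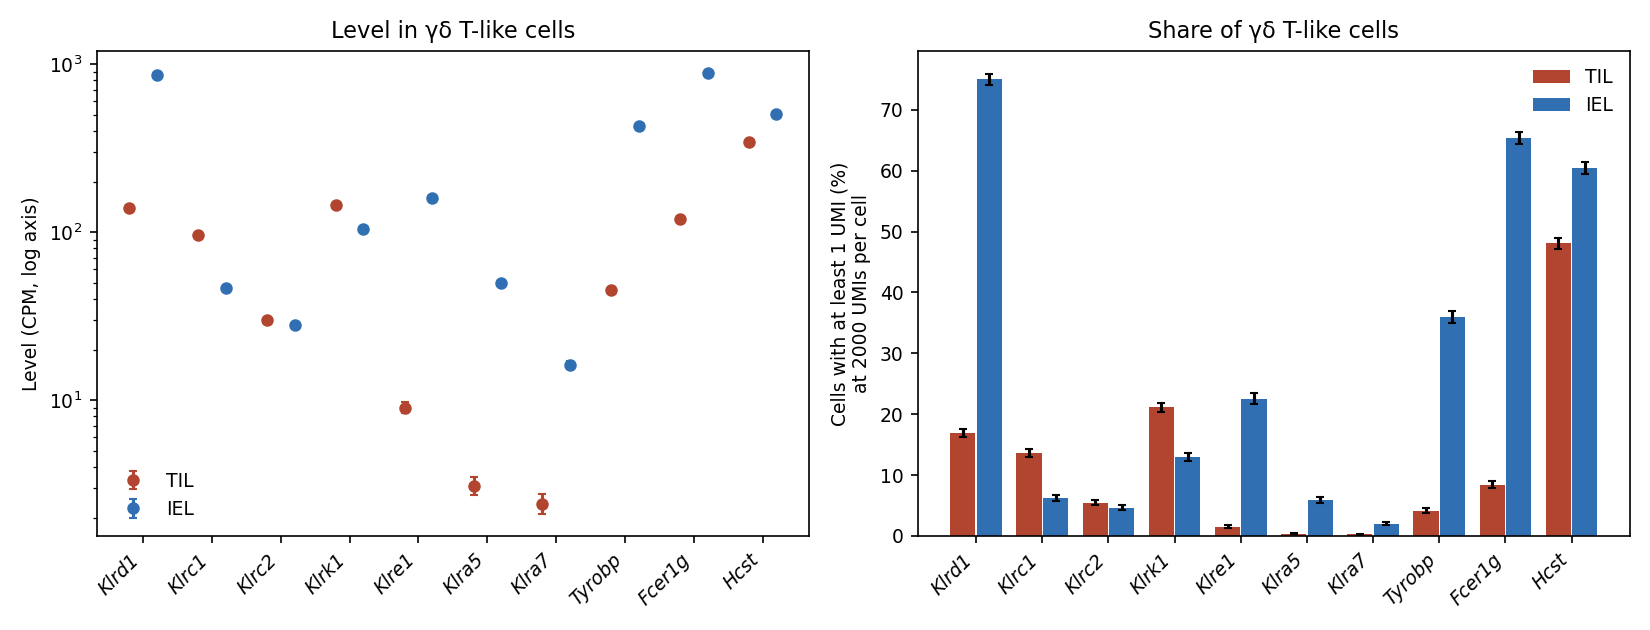
Left, level of each member in γδ T-like cells in CPM on a log axis. Right, percent of γδ T-like cells with at least 1 UMI of it after thinning to 2000 UMIs. Red stands for TIL (left of each pair) and blue for IEL, with 95% counting intervals. Klrd1, Klre1, Klra5, Tyrobp and Fcer1g are lower in TIL cells, Klrc1 is higher, and the Klrc2 shares overlap.

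In all, 1 of the 9 members measured at 20 CPM or more was at least 2-fold higher in TIL cells (Klrc1), 5 were at least 2-fold lower (Klrd1, Klre1, Klra5, Tyrobp and Fcer1g) and 3 lay within 2-fold. The background was 11% of 6329 genes higher and 13.8% lower, or 24.9% either way. The median log2 ratio of the 9 members was -2.63 and that of all measured genes -0.10. The thinned shares of 9 of the 10 members did not overlap between the libraries, Klrc2 being the exception. How many of all genes had shares apart was not computed, so that count has no background and is not read as particular to the members.

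The libraries also differed in the kinds of γδ T-like cells they held, which touches every value above. Clusters of IL-17-like cells (1, 2, 5 and 8) made up 9766 of the 11720 TIL cells and 58 of the 9080 IEL cells. Clusters named cytotoxic-like by markers such as Gzma, Ccl5 and Cd8a made up 1093 TIL cells, mainly clusters 11 (647 cells) and 12 (343 cells), and 8902 IEL cells, mainly clusters 3, 4, 6, 7, 9 and 12. Tcf7 was a leading gene of cluster 4 and Cdh1 of cluster 11, so the name does not hold evenly and clusters are referred to by number. No NK receptor or adaptor gene was used to form the clusters.

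Within the TIL library the Syk-recruiting adaptors separated the clusters. Tyrobp was at 4.73, 4.07, 4.43 and 4.57 CPM in IL-17-like clusters 1, 2, 5 and 8, at 18.0 CPM in the recirculating-like cluster 10, at 179 CPM in cluster 11 and at 1313 CPM in cluster 12. Fcer1g was at 7.73, 13.2, 6.91 and 9.02 CPM in clusters 1, 2, 5 and 8, at 52.7 CPM in cluster 10, at 961 CPM in cluster 11 and at 2280 CPM in cluster 12. The Tyrobp intervals of clusters 1, 2, 5 and 8 overlapped, while clusters 11 and 12 each stood apart. Cluster 10 overlapped the cycling-like cluster 15, at 9.49 CPM (5.87 to 14.5). Over all TIL IL-17-like cells, 0.813% had a Tyrobp UMI and 1.29% an Fcer1g UMI at 2000 UMIs. There Tyrobp took 31.8% (29.0 to 34.8) of the UMIs of both genes, against 51.2% in TIL myeloid-like and 27.1% in TIL cytotoxic-like cells. Hcst stayed between 279 and 564 CPM in these 7 clusters.

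The highest levels of NKG2D and NKG2A were in TIL clusters that had hardly any of these adaptors, and the highest of CD94 in clusters 11 and 12, which had them. Klrk1 reached 304 CPM in cluster 8, which was the highest of the TIL clusters, and 183, 159 and 86.0 CPM in clusters 1, 5 and 2, against 83.4 CPM in cluster 12, 79.1 CPM in cluster 11 and 39.2 CPM in cluster 10. The intervals of clusters 2, 11 and 12 overlapped. Klrc1 was highest in cluster 2, at 160 CPM, followed by cluster 1 at 96.6 CPM, and was at 37.3 CPM in cluster 11 and 1.09 CPM in cluster 12. Klrd1 was at 16.4 and 16.2 CPM in clusters 5 and 8 and at 63.3 and 137 CPM in clusters 1 and 2, against 796 CPM in cluster 11 and 1047 CPM in cluster 12. So 9.95% of all TIL IL-17-like cells had a Klrd1 UMI, a share inside the interval of the TIL myeloid-like cells (4.63 to 12.2), but the clusters differed. The share was 18.4% (17.1 to 19.9) in cluster 2, above that interval, 9.36% (8.39 to 10.4) in cluster 1, inside it, and 2.54% and 2.92% in clusters 5 and 8, below it. The Klrc1 share of TIL IL-17-like cells was 15.2%, above the myeloid-like interval. Cluster 12 of the TIL library thus held CD94 with hardly any NKG2A or NKG2C transcript, 2 UMIs of Klrc1 and 2 of Klrc2 beside 1921 of Klrd1.

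IEL clusters differed in the kind of receptor and in the level of the adaptors Tyrobp and Fcer1g. Cluster 6 had the most Tyrobp (917 CPM), Fcer1g (1341 CPM) and Klre1 (308 CPM) and little Klrc1 (10.7 CPM). Cluster 3 was its opposite, with Tyrobp at 42.4 CPM, Fcer1g at 398 CPM, Klre1 at 70.8 CPM and the most Klrc1 of the IEL clusters, 93.8 CPM. Cluster 4 held the 2 Ly49 genes, Klra5 at 106 CPM and Klra7 at 51.9 CPM, where the other IEL clusters had 5.35 to 58.0 CPM of Klra5 and 2.86 to 13.1 CPM of Klra7. Cluster 7 had the highest Klrd1 level, 1190 CPM, and cluster 12 the highest Klrk1 level, 446 CPM. Klrd1 stayed within 675 to 1190 CPM in all 6 IEL clusters, so it varied less among them than the adaptors Tyrobp and Fcer1g.

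**Figure D2:**
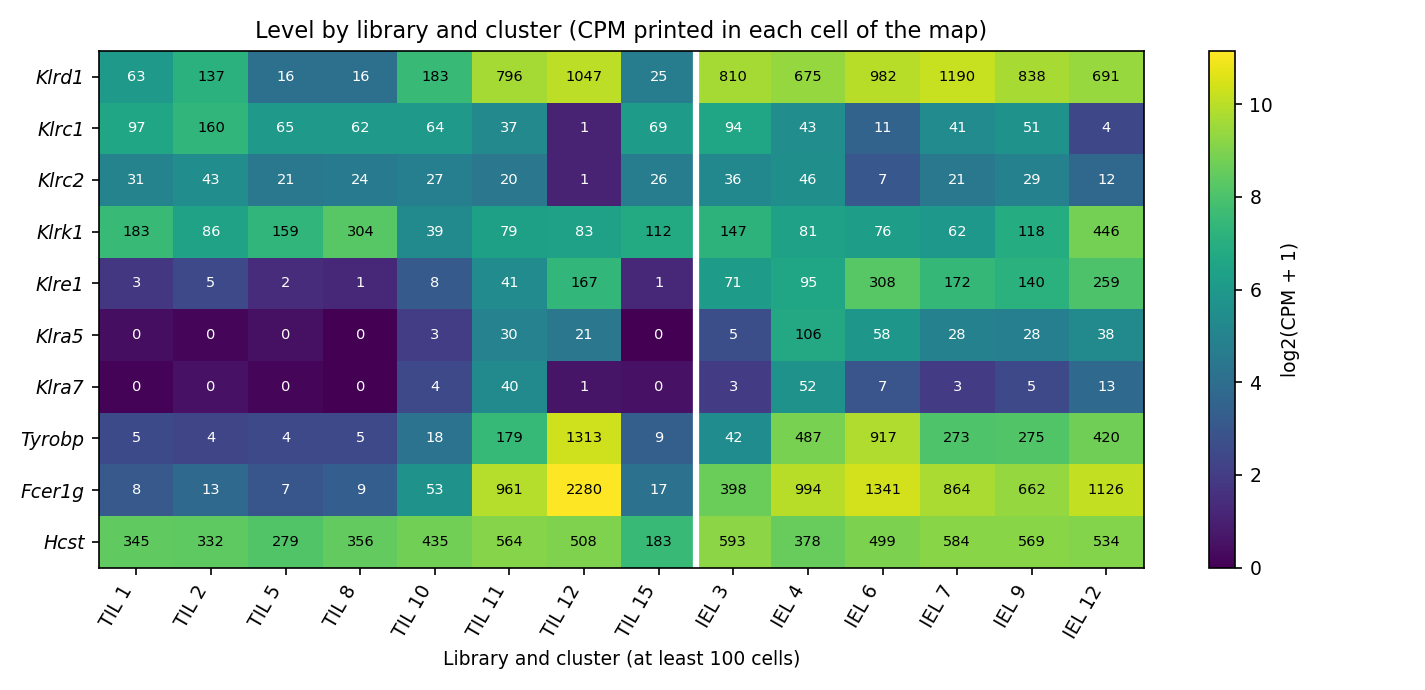
Level of each member (rows) in each group of library and cluster with at least 100 cells (columns, TIL left of the white line and IEL right of it). Colour is log2(CPM + 1) and the printed number is CPM. TIL clusters 1, 2, 5 and 8 show Klrk1, Klrc1 and Hcst with little Tyrobp or Fcer1g. TIL clusters 11 and 12 and the IEL clusters show the adaptors together with Klrd1 and Klre1. Of these, IEL cluster 3 has the least Tyrobp, 42.4 CPM.

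Pooled over the clusters named cytotoxic-like, 1 of the 10 members, Klre1, was at least 2-fold lower in TIL cells (74.8 CPM in TIL cells against 161 CPM in IEL cells, log2 -1.11, -1.24 to -0.98) and none was higher, beside 4.45% of 6041 genes lower, 2.12% higher and 6.57% either way. Klrd1 was at 865 CPM in TIL cells against 875 CPM in IEL cells, and Tyrobp at 493 CPM in TIL cells against 435 CPM in IEL cells. At a finer clustering (resolution 2.0) the Klre1 ratio was -0.70, which ends its call. Fcer1g was at 1325 CPM in TIL cells against 889 CPM in IEL cells (log2 0.58, 0.54 to 0.61). Within 2-fold, Klrc1 (log2 -0.85, -1.08 to -0.63), Klrc2 (-0.95), Klra5 (-0.90) and Klrk1 (-0.38) were lower in TIL cells. Klra7 (0.64) and Hcst (0.09) were higher. The median log2 ratio of the 7 receptors was -0.85, against -0.06 for all measured genes in that pool. The pool rests on leaving TIL cluster 2, which tied between both marker lists, among the IL-17-like cells. With it counted as cytotoxic-like, 6 members were at least 2-fold apart, Klrc1 higher and Klrd1, Klre1, Klra5, Tyrobp and Fcer1g lower in TIL cells. The share of all genes apart in that changed pool was not computed, and the percentages above do not apply to it.

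Pairs of single clusters from the pool differed in opposite directions for Tyrobp. In cluster 12, the one with over 100 cells of each library, Tyrobp was at 1313 CPM in 343 TIL cells, against 420 CPM in 166 IEL cells (log2 1.65, 1.503 to 1.789), and Fcer1g at 2280 CPM in TIL cells against 1126 CPM in IEL cells (log2 1.02, 0.93 to 1.11). Klrk1 was lower there in TIL cells, 83.4 CPM, against 446 CPM in IEL cells (log2 -2.42, -2.69 to -2.16), and Klrd1, Klre1, Klra5 and Hcst lay within 2-fold. Of 7 members measured, 2 were thus higher and 1 lower, where the background was 6.45% of 6127 genes higher, 6.72% lower and 13.2% either way. Cluster 12 as a state shared by both libraries rests on this clustering: at resolution 2.0 its counterpart held 300 TIL and 6 IEL cells. TIL cluster 11 was set beside IEL cluster 4, since both carried Klra7 (39.8 CPM in TIL cells against 51.9 CPM in IEL cells). That choice was made after the values were seen, it fixes that Klra7 was similar, and the 2 clusters are different ones. There Tyrobp was at 179 CPM in TIL cells against 487 CPM in IEL cells (log2 -1.44, -1.55 to -1.34). Klra5 (log2 -1.83), Klre1 (-1.21) and Klrc2 (-1.19) were also lower in TIL cells, and Klrd1, Klrc1, Klrk1, Fcer1g and Hcst lay within 2-fold. These 4 of the 9 members other than Klra7 stand beside a background of 5.41% of 5987 genes lower, 2.24% higher and 7.65% either way.

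**Figure D3:**
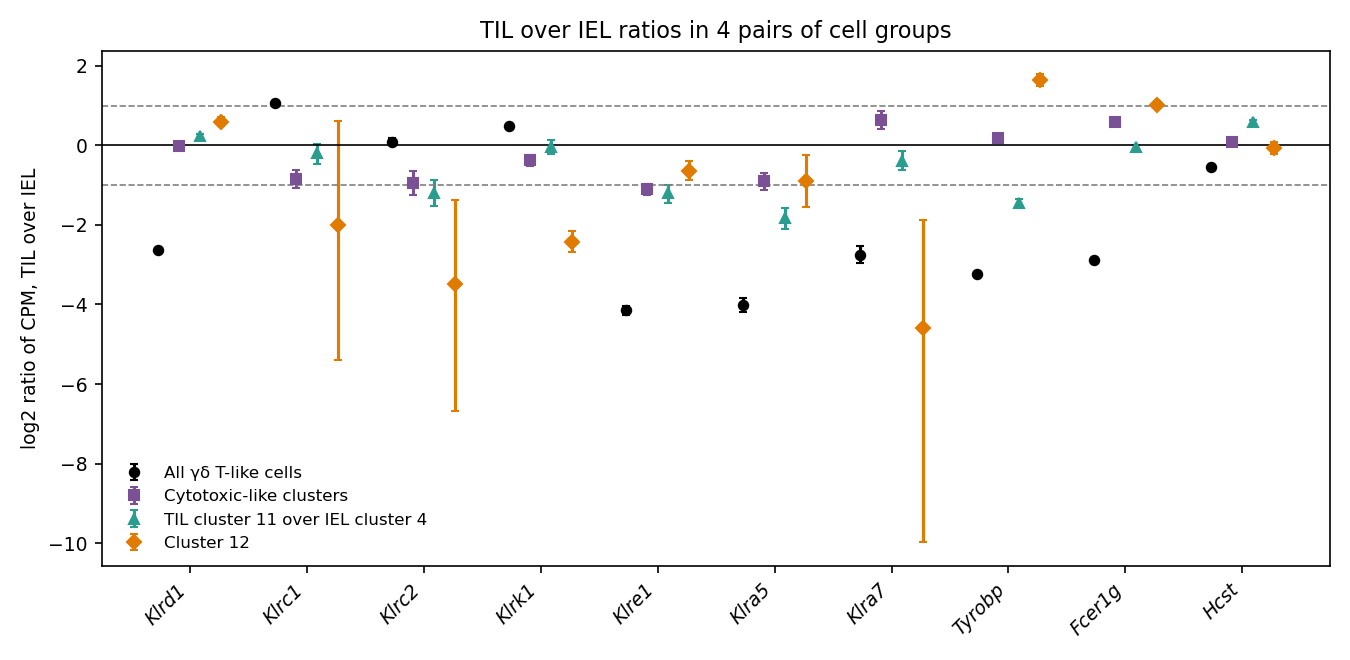
Log2 ratio of CPM, TIL over IEL, for each member in 4 pairs of cell groups, with 95% counting intervals and dashed lines at 2-fold. Black points (all γδ T-like cells) lie far below 0 for Klrd1, Klre1, Klra5, Klra7, Tyrobp and Fcer1g. In the pooled cytotoxic-like clusters (purple) only Klre1 passes 2-fold. Tyrobp lies above 0 in cluster 12 (orange) and below 0 for TIL cluster 11 over IEL cluster 4 (green).

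Cells that carried a γδ segment and no Trac gave the same order of libraries for CD94 and the adaptors within γδ T-like clusters. Among these, Klrd1 was at 117 CPM in 7338 TIL cells and 717 CPM in 2002 IEL cells, Tyrobp at 24.6 CPM in TIL cells against 272 CPM in IEL cells, and Fcer1g at 78.8 CPM in TIL cells against 708 CPM in IEL cells. Where both kinds of segment were found, Klrd1 was at 171 CPM in TIL cells against 900 CPM in IEL cells, Tyrobp at 74.3 CPM in TIL cells against 466 CPM in IEL cells, and Klre1 at 13.7 CPM in TIL cells against 175 CPM in IEL cells. Among IEL cells, Klra7, Klrc1 and Klrc2 were lower with both kinds of segment, Klra7 at 32.2 CPM without Trac and 12.6 CPM with both, Klrc1 at 54.6 CPM without Trac and 44.3 CPM with both, and Klrc2 at 40.0 CPM without Trac and 25.3 CPM with both. Median depth was 6110.5 UMIs in TIL and 6151.5 in IEL cells without Trac, and 6950 in TIL and 7100 in IEL cells with both, so cells with both were the deeper ones.

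Per cell, TIL cells more often had no receptor and no adaptor UMI. At 2000 UMIs, 53.2% of TIL and 15.4% of IEL cells had none of the 7 receptors, and 1.69% of TIL and 8.09% of IEL cells had at least 3. None of the 3 adaptors was found in 48.2% of TIL cells (47.3 to 49.1) and 11.3% of IEL cells (10.7 to 11.97), and all 3 in 1.96% of TIL and 17.5% of IEL cells. A receptor UMI without any adaptor UMI was found in 20.6% of TIL cells (19.8 to 21.3) and 8.58% of IEL cells (8.01 to 9.18). In the pooled cytotoxic-like clusters, no adaptor was found in 9.06% of TIL and 10.9% of IEL cells and all 3 in 20.2% of TIL and 17.8% of IEL cells. The TIL value averages 10.1% with all 3 in cluster 11 and 42.01% in cluster 12. No receptor was found in 21.3% of these TIL cells (18.9 to 23.8) and 15.1% of these IEL cells (14.3 to 15.8), and at least 3 in 4.62% of TIL and 8.07% of IEL cells, without overlap.

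**Figure D4:**
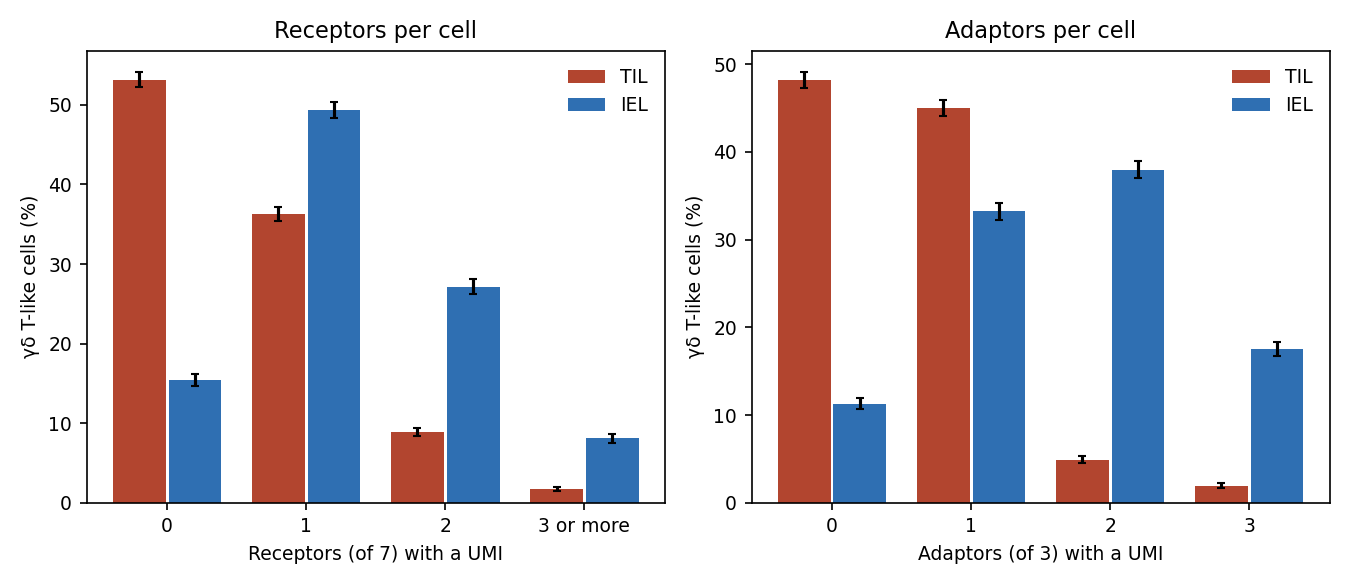
Percent of γδ T-like cells by how many of the 7 receptors (left) and of the 3 adaptors (right) had a UMI at 2000 UMIs per cell. Red bars are TIL (left of each pair), blue bars IEL, and error bars are 95% counting intervals. The commonest number of receptors is 0 in TIL and 1 in IEL cells, and the commonest number of adaptors is 0 in TIL and 2 in IEL cells.

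Receptor and adaptor were then paired within cells. Of 21 pairs in each library, cells with the receptor more often had the adaptor in 11 TIL and 11 IEL pairs, less often in 5 TIL and 6 IEL pairs, and the intervals overlapped in 5 TIL and 4 IEL pairs. Pairs of genes outside the members were not counted in this way, so these counts have no background. The pooled cells mix clusters with different levels of these genes, and single clusters are given below. Cells with a Klrd1 UMI left after thinning had each of the 3 adaptors more often in both libraries. In TIL cells Fcer1g was found in 34.1% of Klrd1-positive (32.0 to 36.2) and 3.22% of Klrd1-negative cells (2.88 to 3.59), and in IEL cells in 67.7% of Klrd1-positive (66.6 to 68.8) and 58.2% of Klrd1-negative cells (56.1 to 60.2). Tyrobp was found in 17.1% of Klrd1-positive and 1.54% of Klrd1-negative TIL cells, and in 37.1% and 32.7% of such IEL cells. Most Klrd1-negative IEL cells had a Klrd1 UMI before thinning, so they do not stand for cells without CD94 transcripts. The gap between Klrd1-positive and Klrd1-negative cells therefore cannot be compared between the libraries.

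The inhibitory Ly49 genes and Klre1 went with the Syk-recruiting adaptors most often. Of 41 TIL cells with Klra5, 53.7% had Tyrobp (37.4 to 69.3), against 3.995% of the TIL cells without Klra5. In IEL cells with Klra5 it was 70.6% of 528 (66.6 to 74.5), against 33.8% of those without it. Klre1-positive cells had Tyrobp in 43.9% of TIL cells (36.5 to 51.5) and 51.1% of IEL cells (48.9 to 53.3), against 3.55% of TIL and 31.6% of IEL cells without Klre1. Klra7-positive cells had Fcer1g in 83.9% of 31 TIL cells and 84.1% of 182 IEL cells, against 8.23% of TIL and 64.9% of IEL cells without Klra7.

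The activating receptors did not go with DAP12 in the pooled cells. Klrk1-positive cells had Tyrobp in 2.32% of TIL cells (1.76 to 2.99) and 25.7% of IEL cells (23.2 to 28.3), less often than Klrk1-negative cells, with 4.67% in TIL and 37.5% in IEL cells. DAP10, the partner of NKG2D, was found in 47.4% of Klrk1-positive (45.4 to 49.4) and 48.3% of Klrk1-negative TIL cells (47.2 to 49.3), which overlapped. In IEL cells it was found in 64.8% of Klrk1-positive (62.0 to 67.6) and 59.7% of Klrk1-negative cells (58.6 to 60.8). Klrc2-positive cells had Tyrobp in 3.31% of TIL cells (2.06 to 5.01) and 29.0% of IEL cells (24.7 to 33.6), against 4.22% of TIL and 36.3% of IEL cells without Klrc2. CD94, NKG2C and DAP12 transcripts, the parts of 1 activating receptor, stood together in 0.0686% of TIL and 1.04% of IEL cells.

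For the partners that form heterodimers, the shares of Klrc1 and Klrc2 overlapped between cells with and without Klrd1. Klrc1 was found in 13.2% of Klrd1-positive (11.7 to 14.8) and 13.6% of Klrd1-negative TIL cells (13.0 to 14.3), and in 6.19% of Klrd1-positive (5.62 to 6.79) and 6.49% of Klrd1-negative IEL cells (5.50 to 7.58). Most of these Klrd1-negative IEL cells had a Klrd1 UMI before thinning. The overlap in IEL cells therefore cannot show whether NKG2A goes with CD94. Klri2, the activating partner of Klre1, was found in 3.89% of 180 Klre1-positive TIL cells (1.58 to 7.85) and 0.749% of the Klre1-negative ones. In IEL cells the share of Klri2 was 2.02% of Klre1-positive and 1.25% of Klre1-negative cells, with overlapping intervals. Shares of Klri1, the inhibitory partner, are not given here, so the partners of Klre1 cannot be compared. Tyrobp and Fcer1g, by contrast, were found together. Fcer1g was in 79.8% of Tyrobp-positive TIL cells (76.0 to 83.3), against 5.33% of the others, and in 86.7% of Tyrobp-positive IEL cells (85.4 to 87.8), against 53.3% of the others.

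**Figure D5:**
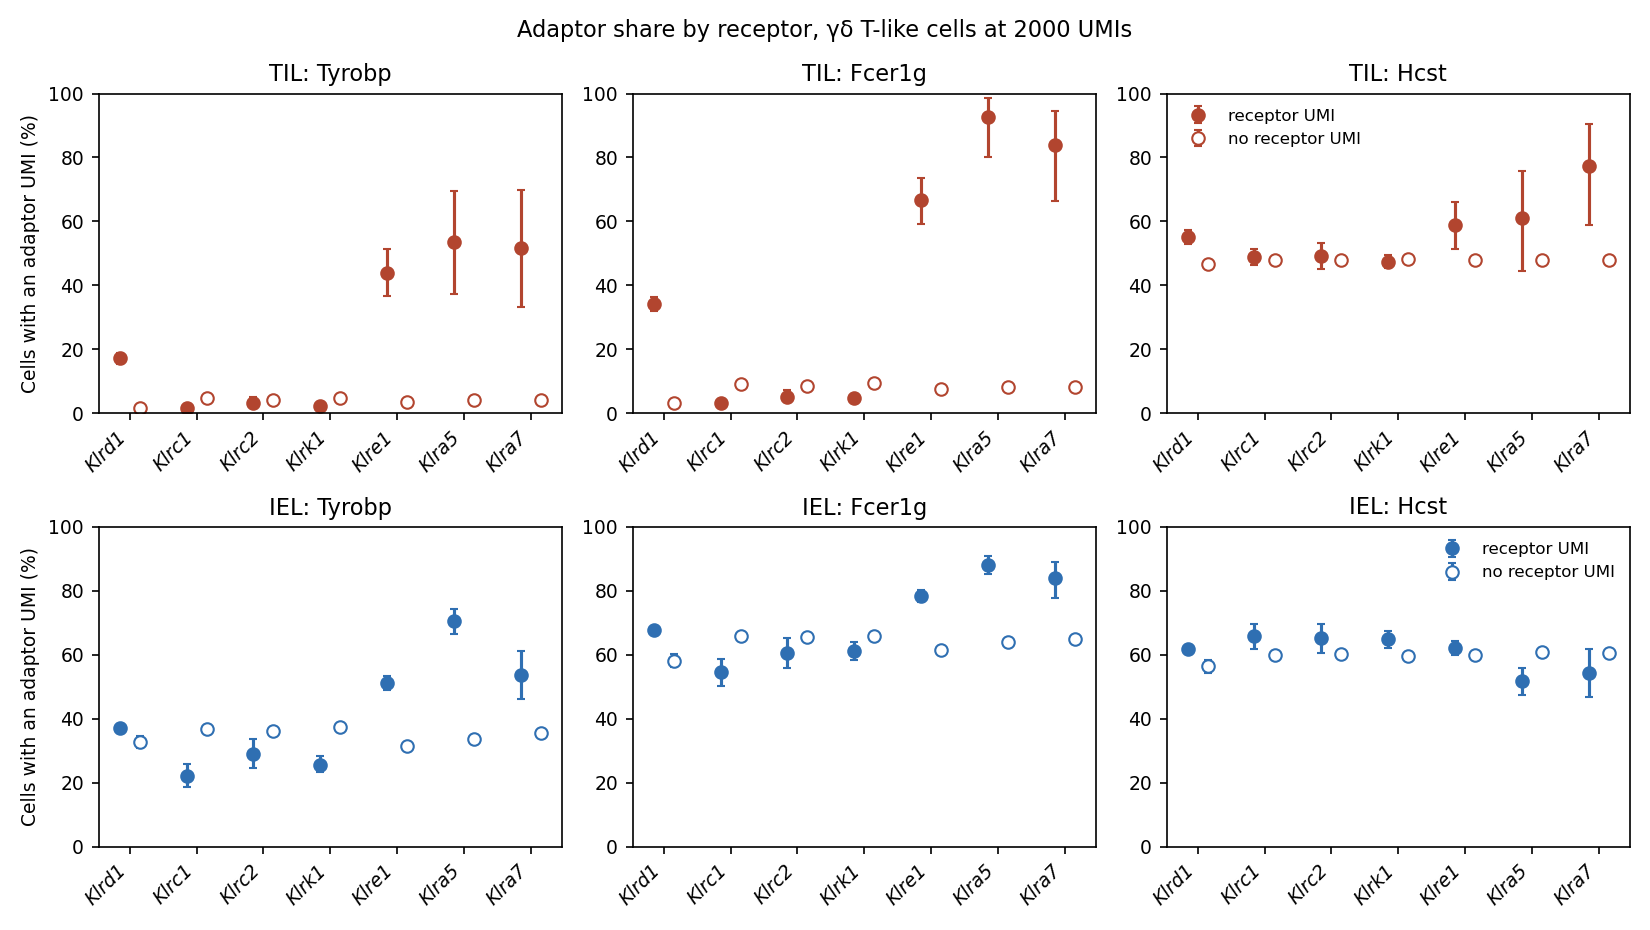
Percent of γδ T-like cells with a UMI of Tyrobp, Fcer1g or Hcst (columns) in cells with (filled) and without (open) a UMI of each receptor, at 2000 UMIs. The upper row is TIL and the lower row IEL, and error bars are 95% counting intervals. Filled points stand well above open ones for Klre1, Klra5 and Klra7 with Tyrobp and Fcer1g in both libraries, and below them for Klrc1 and Klrk1 with Tyrobp.

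Within single clusters fewer pairs stood apart. Each cluster held fewer cells than its library, which widens the intervals and makes a call harder to reach. The lower counts therefore cannot by themselves show weaker pairing within clusters. Over all TIL IL-17-like cells, 1 of 15 pairs with at least 20 receptor-positive cells stood higher, Klrd1 with Fcer1g at 2.38% of positive and 1.17% of negative cells. In TIL cluster 2, 0 of 15 pairs did, in clusters 1, 5 and 10 0 of 12 each, and in cluster 8 2 of 12, both on 3 of 36 Klrd1-positive cells. TIL cluster 11 had 8 of 21 pairs higher and 0 lower. Klrk1-positive cells there had Tyrobp more often, 32.8% (21.8 to 45.4), against 14.8% of Klrk1-negative cells, which is the other way round from the whole TIL library. Klrc2-positive cells of cluster 11 had Tyrobp in 37.0% of 27 (19.4 to 57.6), against 15.8% of the others (13.0 to 18.9). In TIL cluster 12 Klrk1-positive cells had Tyrobp less often, 37.9% of 29 (20.7 to 57.7), against 78.6% (73.6 to 83.1). In IEL cells the number of higher pairs was 8 of 21 in cluster 4, 6 of 18 in cluster 9, 2 of 18 in cluster 7, and 1 each in clusters 3, 6 and 12. Klra5 with Tyrobp was higher in IEL clusters 4, 6, 7 and 9. In cluster 4 it was 73.5% of Klra5-positive (67.7 to 78.7) and 41.2% of Klra5-negative cells (39.0 to 43.5).

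The other NK receptors were mostly rare. Of 16 listed inhibitory receptors 4 reached 20 CPM. Klrb1b, the NKR-P1B receptor, was higher in TIL cells (25.5 CPM in TIL cells against 10.6 CPM in IEL cells, log2 1.26, 1.14 to 1.39). Cd160 (log2 -2.49), Lilrb4a (-2.14) and Cd96 (-1.09) were lower. Of 15 activating receptors in the matrices 5 were measured and, beside the same 13.8% of all genes, 4 were lower in TIL cells: Klrb1a (-3.96), the SLAM family receptors Cd244a (-3.74) and Slamf7 (-3.08), and Crtam (-3.06). Cd226 stood at 74.1 CPM in TIL cells against 39.9 CPM in IEL cells (0.89, 0.83 to 0.96). The median log2 ratio was -1.61 for the inhibitory and -3.08 for the activating list, against -0.10 over all measured genes.

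Downstream of the adaptors more genes were lower than higher in TIL cells. Of 26 signalling genes 21 were measured, of which 2 were higher and 10 lower in TIL cells, with a median of -0.76, beside the 11% of all genes higher and 13.8% lower. Lat, the scaffold of T cell receptor signalling, was at 462 CPM in TIL cells against 177 CPM in IEL cells (log2 1.39, 1.36 to 1.42), and Cd247, the ζ chain, at 367 CPM in TIL cells against 180 CPM in IEL cells (log2 1.03, 0.996 to 1.06). Lower in TIL cells were the Src-family kinases Fgr (-4.92), Lck (-3.07) and Lyn (-1.42), the SLAM adaptor Sh2d1b1 (EAT-2, -3.77), Vav3 (-3.28), Vav1 (-1.12), Plcg2 (-3.22), the phosphatase Ptpn6 (SHP-1, -2.26), Pik3r1 (-2.17) and Lat2 (-1.82). Zap70 (-0.09), Grb2 (0.16) and Pik3cd (-0.55) lay within 2-fold. In the pooled cytotoxic-like clusters Fgr (-1.56) and Ptpn6 (-1.06) were the 2 of 21 signalling genes still lower, and none was higher, beside 4.45% of all genes lower in that pool.

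Of 12 listed ligand genes 7 were measured in the γδ T-like cells themselves. None was higher in TIL cells, and Clec2i (-3.92) and Cdh1, the E-cadherin that KLRG1 binds (-2.71), were lower, 2 of 7 beside the 13.8% of all genes lower and 24.9% either way, with a median of 0.33. H2-T23, which encodes the Qa-1 ligand of CD94 receptors, was at 500 CPM in TIL cells against 319 CPM in IEL cells (log2 0.65, 0.62 to 0.67). The 7 epithelial markers, Cdh1 among them, summed to 19.0 CPM in TIL cells against 86.4 CPM in IEL γδ T-like cells, and their part in the Cdh1 value was not tested.

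Over the 14 groups of library and γδ T-like cluster with at least 100 cells, which leave out unnamed cluster 13 and myeloid-like cluster 14, 5 members varied together, Klrd1, Klre1, Klra5, Tyrobp and Fcer1g, with pairwise correlations of 0.873 to 0.972. Tyrobp and Fcer1g correlated with each other at r = 0.97, and Klre1 with Fcer1g at 0.96 and Klrd1 with Klre1 at 0.94 (Pearson, log2(CPM + 1)). Klrc1 correlated with Klrc2 at 0.90 and with Tyrobp at -0.77, and Klrk1 with no other member beyond -0.34. The gene most like Tyrobp was Sh2d1b1 (0.99), like Klre1 Vav3 (0.99), like Klra5 Sh2d1b1 (0.97), like Fcer1g Chn2 (0.99) and like Klrd1 Ifi27 (0.99). Klrc1 was most like Cd226 (0.91), Klrc2 like Klrc1, Klrk1 like Cldnd1 (0.85), Klra7 like Gm19590 (0.91) and Hcst like Cipc (0.94). The 14 points share 2 libraries and their depth, and these values are a description.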

How the data were processed

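Each deposited matrix gives UMIs as raw counts, whole numbers by gene and barcode. Cell Ranger 6.1.1 and mm10 appear in the submitters' processing notes. The calling of barcodes as cells is not given in the sources used here.

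Cells with at least 500 genes, 1000 UMIs and at most 10% mitochondrial UMIs were kept. The libraries were clustered jointly, with no batch correction (Scanpy 1.11.5, 2000 variable genes, 30 components, 15 neighbours, Leiden at resolution 1.0 with igraph 0.11.9), leaving out the members, other NK genes, antigen receptor segments, immunoglobulin, haemoglobin, mitochondrial and sex-linked genes. A cluster was given another cell type's name when 3 of its markers reached 50 CPM and 4-fold over other cells, and otherwise was γδ T-like with 3 γδ T markers at 50 CPM. Since Cd3e, Cd3d and Cd3g count among these markers, a cluster of other T cells could pass that rule. At resolution 2.0 a cluster of 85 TIL cells led by Tnfrsf4, Foxp3, Il1rl1 and Cd4 passed it and was named IL-17-like. Where these cells lay at resolution 1.0 was not followed. A subset was the list with the largest share of markers at 50 CPM. Breaking ties by mean fold, the limit of 0.2 on the median doublet score and the need for 5% haemoglobin UMIs to name erythroid cells were chosen after the data were seen. Scrublet called 0 doublets in either library, which was taken as not working, so none were removed, and cluster 13, whose doublet scores were high, was left unnamed.

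Summed counts were given as CPM. A gene was called at 20 CPM or more in either library, at least 2-fold apart and with an exact conditional 95% interval (SciPy 1.17.1) excluding 1. Shares were taken after thinning to 2000 UMIs without replacement, which left out 65 TIL and 72 IEL γδ T-like cells, with Clopper-Pearson intervals. PCR and free RNA are not covered by either interval. Limits for a count of 0 used 3 cells. No p-value was computed. The scripts were tested on simulated data.

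The members and lists were chosen with earlier results of these data known. Named genes are the 10 members, per list the 3 furthest in each direction, and the 3 genes most like each member, of which the first is given. Others, such as Zap70, Pik3cd, Lck and further called list members, were picked after their values were seen. Klrh1 was not analysed here.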

Additional observations from a re-analysis of the deposited data

Results flagged for a closer look

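The TIL over IEL ratio of Tyrobp ran in opposite directions in different pairs of clusters. It was a log2 ratio of 1.65 in cluster 12 and of -1.44 for TIL cluster 11 over IEL cluster 4, with the intervals on opposite sides of 0. The second ratio compares 2 different clusters, and the first rests on a cluster whose counterpart at resolution 2.0 held 300 TIL and 6 IEL cells, so neither is shown to be a difference within 1 cell state. The difference between these ratios was not tested, since each rests on 1 library per tissue.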

How the results depend on the processing

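The count of members at least 2-fold apart in γδ T-like cells was 5 to 7 under its 11 alternatives, and that of members with shares apart 9 to 10 and of higher pairs 15 to 26 under 13 each, all within 1.5 times the values reported. The count of 1 within the cytotoxic-like clusters was 3 at Leiden resolution 2.0 (Klrc1, Klrc2 and Klra5 lower), 2 with the cell-wise rule on receptor segments (Klrc2 and Klre1 lower) and 6 with tied cluster 2 counted as cytotoxic-like, an alternative chosen after seeing the data. The cause of the first 2 was not tested. At resolution 2.0 a cluster of 387 TIL and 7 IEL cells, with Klra7 a leading gene, had no subset name and was not pooled. The Klra7 ratio of that pool was -2.22 and not called, against 0.64 at the main resolution. No share over all genes was computed under any alternative, so counts under the alternatives have no background. Klra7 was called lower with a floor of 5 CPM and with the cell-wise rule, and Klra5 was not called with a floor of 50 CPM. No called member changed direction in γδ T-like cells, where the largest range was that of Tyrobp, -3.29 to -2.02, while Klrc2, which was not called, moved between -0.32 and 0.19. No paired analysis was possible because each tissue had 1 library, and none could be left out. Depth limits Klra5 and Klra7 in TIL cells, which rest on 264 and 208 UMIs.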
